A study of Mus musculus with 12 samples.

Results

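Cytochrome P450 genes, their electron donor and their receptors were examined in RNA from the small intestine of mice given busulfan, a second agent labelled AOS, both or neither. The members were all genes whose symbol has the form of a P450 family, subfamily and number (Cyp3a25, for instance), together with Por, Nr1i2, Nr1i3 and Ahr. Cyp51, a P450 gene whose symbol has no subfamily letter, was left out. The rule used names only and no measured value, and it found 69 of the 16942 genes in the table: 65 P450 genes, 1 reductase and 3 receptors. Of these, 37 had enough counts to be tested (33 P450 genes, Por and the 3 receptors), among 12329 tested genes in all.

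P450 enzymes are haem proteins of the endoplasmic reticulum or mitochondria that insert an oxygen atom into drugs, sterols, fatty acids and other small molecules. Those of the endoplasmic reticulum take electrons from P450 oxidoreductase (Por). Members of families 1 to 3 handle mostly foreign compounds and are controlled by ligand-activated receptors: the pregnane X receptor (Nr1i2) and the constitutive androstane receptor (Nr1i3) act on Cyp3a, Cyp2b and Cyp2c genes, and the aryl hydrocarbon receptor (Ahr) acts on Cyp1a genes. Family 4 hydroxylates the ends of fatty acids and eicosanoids, and the remaining families act on sterols, steroids, retinoids and vitamin D. In the gut these enzymes sit mainly in enterocytes, the absorptive cells, where they meet swallowed compounds first.

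All animals were ICR mice, an outbred stock, and total RNA was sequenced. The 4 groups of 3 libraries each were AOS0 (no busulfan, AOS at 0), AOS10 (no busulfan, AOS at 10), B+A0 (busulfan, AOS at 0) and B+A10 (busulfan, AOS at 10). Busulfan is an alkylating drug that damages the DNA of dividing cells. The labels used here do not spell out AOS, its unit or its route, nor the busulfan dose, the ages, the times or the segment of small intestine, and they do not tell whether the libraries of a group are separate animals. Every p-value below therefore refers only to the spread among these libraries.

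Library totals ran from 13560232 to 16818245 counts. The enterocyte markers were abundant, with a summed FPKM (a level scaled for transcript length and sequencing depth) over 21 genes of 7558 to 15164 per library. Markers of neighbouring organs were near 0: 7 liver genes summed to 1.16 to 5.56 FPKM, with albumin (Alb) at most at 0.10, and 4 pancreas genes summed to at most 0.52 FPKM. Likewise 5 smooth muscle genes summed to at most 1.24 FPKM. Of the 2 adipose genes in the table, Adipoq was listed at 0 in 11 libraries, whereas Cidec, a lipid droplet gene, had 6.79 to 16.1 FPKM. T cell markers differed with busulfan: 7 genes summed to 106 to 202 FPKM in AOS0 and to 21.1 to 58.6 FPKM in B+A0. Markers of the distal small intestine (4 genes) summed to 1846 to 2477 FPKM in AOS0 and 1398 to 1649 FPKM in AOS10. In B+A0 they summed to 872 to 2379 FPKM and in B+A10 to 974 to 1400 FPKM. Over all libraries, 4 proximal genes summed to 69.7 to 87.6 FPKM and 4 crypt genes to 328 to 612 FPKM. The part of gut position in the values below was not tested.

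Among the 65 P450 genes of the rule, most of the message came from family 4. On the FPKM scale, its 14 genes made up 63.6% of the summed level of the 65 P450 genes over all 12 libraries, and the 9 Cyp4f genes alone made up 53.7%. Families 1 to 3 with 40 genes made up 34.1%, and the 11 genes of other families made up 2.30%. These shares do not count Cyp51, which was abundant. Its group means were 44.9 FPKM in AOS0, 39.35 in AOS10, 44.9 in B+A0 and 37.7 in B+A10. Cyp4f14, which inactivates leukotriene B4 and related eicosanoids, had the highest mean level of any member, 262 FPKM. It was followed by Cyp4f40 (97.8 FPKM), Cyp4f16 (83.2 FPKM), Cyp2d26 (81.2 FPKM) and Cyp4v3 (80.1 FPKM), a fatty acid hydroxylase. Between these 4 genes the order is not firm, since single libraries of Cyp4f16 ran from 53.0 to 122 FPKM and those of Cyp4v3 from 34.1 to 111 FPKM. Por stood at 62.1 FPKM, Cyp2s1 at 56.4 FPKM, Cyp4f13 at 54.0 FPKM, Nr1i2 at 44.8 FPKM and Cyp3a13 at 38.6 FPKM.

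**Figure D1:**
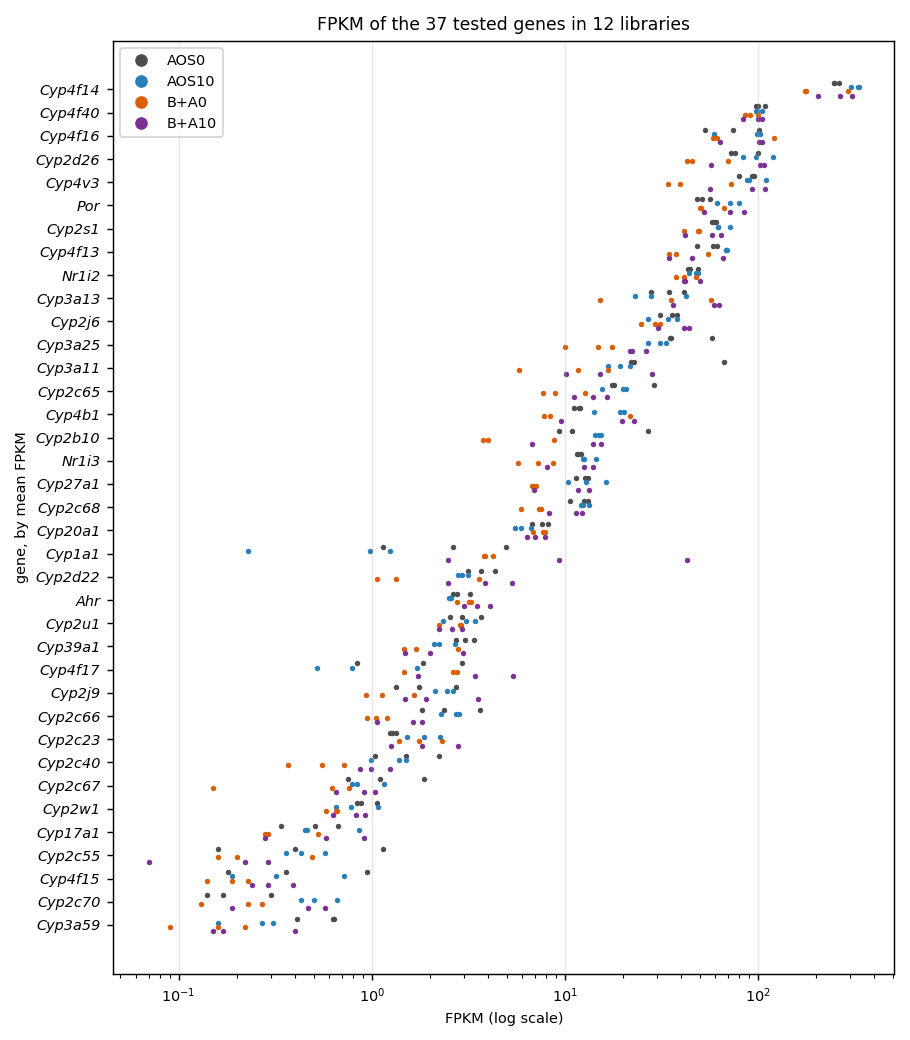
FPKM (log axis) of each of the 37 tested genes, in order of mean level, with 1 point per library and colour for the group. Cyp4f14 lies above every other member in all libraries, and on this log axis the widest spread is that of Cyp1a1, from 0.23 to 42.8 FPKM.

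Of the 37 tested members, 19 had a mean of at least 10 FPKM, 11 lay between 1 and 10 FPKM and 7 lay under 1 FPKM. The other 32 members were too low to test. Their highest mean was 0.212 FPKM (Cyp4a10), their highest single value was 0.46 FPKM, and 17 of them had 0 counts in at least 6 of the 12 libraries. The untested members included the classical liver enzymes Cyp1a2, Cyp2e1 and Cyp2c29, and the retinoic acid hydroxylases Cyp26a1, Cyp26b1 and Cyp26c1. By class, 19 of 40 genes of families 1 to 3, 6 of 14 of family 4 and 7 of 11 of the other families were not tested.

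The comparison of B+A0 with AOS0 shows the members after busulfan alone. Cyp3a and Cyp2c genes were lower: Cyp3a25, Cyp3a59, Cyp2c40, Cyp2c65, Cyp2c66 and Cyp2c68 fell, and no member rose. These 6 calls among 37 members (edgeR quasi-likelihood test, adjusted p under 0.05 over all genes tested) stand beside 3.64% of all genes called in either direction, 1.94% lower and 1.70% higher. DESeq2 called 9 members, all lower, beside 8.32% of all genes: these 6, Cyp3a11, Cyp27a1 and Nr1i3. Of the 37 members, 27 had a log2 fold change below 0, with a median of -0.56, whereas 51.2% of all genes were below 0 with a median of -0.01. All 6 called genes belong to families 1 to 3, of which 17 of 21 were below 0 (median -0.76). In bulk RNA, fewer cells that carry a transcript and less transcript per cell cannot be told apart.

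Cyp3a25, a drug-oxidizing enzyme of the subfamily that the pregnane X receptor controls (chr5:145977192-146009644), had 35.1, 58.0 and 35.4 FPKM in the AOS0 libraries and 17.5, 14.9 and 10.04 FPKM in the B+A0 libraries. Every B+A0 library lay under every AOS0 library, and the means were 42.8 ± 13.1 and 14.2 ± 3.79 (SD, n = 3 each). The log2 fold change was -1.55 (SE 0.22, edgeR, adjusted p = 0.00685). Its neighbour Cyp3a59 (chr5:146079208-146114978) was scarce, with 0.63, 0.64 and 0.41 FPKM in AOS0 and 0.16, 0.22 and 0.09 FPKM in B+A0, from 3 to 19 counts per library. It fell by 1.80 on the log2 scale (SE 0.46, edgeR, adjusted p = 0.0490), a call that rests on few counts and lies next to the threshold. The 2 genes are hard to separate: 25.2% of the 50-base stretches of Cyp3a25 transcripts also occur in Cyp3a59 transcripts (GENCODE M21). Reads may therefore have been split between them. Of the deposited counts of each, 25% were not whole numbers, which does not by itself show such a split.

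Of the tested Cyp3a genes, Cyp3a11 and Cyp3a13 were not called by edgeR. Cyp3a11, the main pregnane X receptor target of mouse liver, had 22.1, 66.6 and 22.9 FPKM in AOS0 and 16.7, 11.7 and 5.81 FPKM in B+A0. The groups did not overlap, but 1 AOS0 library stood far above the other 2, and the log2 fold change of -1.67 (SE 0.48) missed the threshold in edgeR (adjusted p = 0.0701) and passed it in DESeq2 (adjusted p = 0.0480). Cyp3a13, an intestinal member of the subfamily, had 34.6, 27.9 and 41.6 FPKM in AOS0 and 57.1, 35.5 and 15.3 FPKM in B+A0, with overlapping groups. Its log2 fold change was 0.10 (SE 0.38, edgeR, adjusted p = 0.910), and the sign turned without B+A0 replicate 1 (-0.43).

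Among the Cyp2c genes, enzymes that oxidize arachidonic and linoleic acid as well as drugs, 4 of 8 tested members fell. All 4 lie in 1 stretch of chromosome 19, as do the uncalled Cyp2c55, Cyp2c67 and Cyp2c70. Cyp2c65 (chr19:39061006-39093948) had 17.9, 28.9 and 17.6 FPKM in AOS0 and 12.7, 8.91 and 7.73 FPKM in B+A0. Cyp2c68 (chr19:39688836-39741101) had 10.6, 12.5 and 13.2 FPKM in AOS0 and 7.53, 7.32 and 5.93 FPKM in B+A0. In both genes the groups were apart, and the smaller difference, that of Cyp2c68, went with the tighter libraries. The log2 fold change was -1.09 for Cyp2c65 (SE 0.24, edgeR, adjusted p = 0.0306) and -0.76 for Cyp2c68 (SE 0.16, edgeR, adjusted p = 0.0268).

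Cyp2c66 (chr19:39113898-39186756) and Cyp2c40 (chr19:39767073-39812814) also fell, at lower levels. Cyp2c66 had 2.36, 3.62 and 1.82 FPKM in AOS0 and 1.20, 0.95 and 1.05 FPKM in B+A0 (log2 fold change -1.23, SE 0.29, edgeR, adjusted p = 0.0396). Cyp2c40 had 1.04, 1.51 and 2.23 FPKM in AOS0 and 0.72, 0.37 and 0.55 FPKM in B+A0 (log2 fold change -1.51, SE 0.36, edgeR, adjusted p = 0.0396). Neither gene had overlapping groups. The 4 genes outside the calls were mixed: Cyp2c67 was at -1.22 (SE 0.48, edgeR, adjusted p = 0.159), Cyp2c55 at -0.97 (SE 0.66, adjusted p = 0.414), Cyp2c70 at 0.04 (SE 0.56, adjusted p = 0.974), and Cyp2c23, which lies apart from the others on chromosome 19, at 0.53 (SE 0.31, adjusted p = 0.343). Cyp2c23 was also the only tested member whose B+A0 libraries all lay above the AOS0 libraries, beside 15 members with all B+A0 libraries below, where 9.68% of all genes lay above and 17.2% below.

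These Cyp2c calls are not fully separate measurements. The share of their transcripts' 50-base stretches that occur in at least 1 other gene was 60.3% in Cyp2c40, 52.8% in Cyp2c67 and 43.3% in Cyp2c68. It was 20.6% in Cyp2c65 and 19.5% in Cyp2c66. None of the deposited counts of Cyp2c40, Cyp2c65, Cyp2c66 and Cyp2c68 were whole numbers. Such fractions do not by themselves mark shared sequence. In Nr1i3 and Cyp20a1 100% of the counts were not whole either, with 0% and 4.64% of stretches shared. The sum over the 10 Cyp2c genes in the table, which depends less on how reads were split among them, was 34.7, 50.4 and 38.3 FPKM in AOS0 and 25.9, 20.4 and 17.1 FPKM in B+A0. The summed level was thus also lower in every B+A0 library than in any AOS0 library. Its largest parts are the called Cyp2c65 and Cyp2c68 (means of 16.0 and 10.6 FPKM over all libraries). The sum is therefore not separate support for the calls.

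The stretches upstream of these genes are shown because 3 of the 4 called Cyp2c genes (Cyp2c40, Cyp2c65 and Cyp2c68), the uncalled Cyp2c67 and Cyp2c70, and Cyp3a11 share a short element there, which the called Cyp2c66 lacks. Each line gives 60 bases, 5′ to 3′ on the gene's own strand, from RefSeq GRCm38.p6, with the 9-base motif CAAAGTCCA, which hepatocyte nuclear factor 4 is known to bind, in capitals (in Cyp2c66 the closest stretch).
Cyp2c65, chr19:39060865-39060924, plus strand: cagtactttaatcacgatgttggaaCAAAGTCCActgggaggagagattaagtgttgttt
Cyp2c66, chr19:39113769-39113828, plus strand: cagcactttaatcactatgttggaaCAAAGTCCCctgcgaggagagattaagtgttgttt
Cyp2c68, chr19:39741144-39741203, minus strand: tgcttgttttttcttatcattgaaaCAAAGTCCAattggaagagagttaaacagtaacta
Cyp2c40, chr19:39812825-39812884, minus strand: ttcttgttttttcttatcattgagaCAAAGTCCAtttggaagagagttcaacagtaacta
Cyp2c67, chr19:39649133-39649192, minus strand: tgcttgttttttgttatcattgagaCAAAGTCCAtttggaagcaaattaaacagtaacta
Cyp2c70, chr19:40187316-40187375, minus strand: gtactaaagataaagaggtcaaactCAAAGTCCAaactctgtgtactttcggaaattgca
Cyp3a11, chr5:145879929-145879988, minus strand: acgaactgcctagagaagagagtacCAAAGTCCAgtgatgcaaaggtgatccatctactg

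RefSeq windows of 300 bases (250 before and 50 after the start site) were at hand for 58 members, 30 of them tested, and were searched on both strands. CAAAGTCCA occurred in 6 members, all of them tested (Cyp2c40, Cyp2c65, Cyp2c67, Cyp2c68, Cyp2c70 and Cyp3a11), and in 0.475% of all 32851 windows. The printed stretches of Cyp2c40, Cyp2c67 and Cyp2c68 are nearly alike, so the 6 matches are not separate occurrences to set against that share. Cyp2c66 differed from the motif by the substitution A9C, counted from 1 at the 5′ end of the motif. The element does not separate called from uncalled genes, since Cyp2c70 and Cyp2c67 carry it too, Cyp2c66 does not, and the window of Cyp2c55 held no match. The bases before the start sites of Cyp2c65 and Cyp2c66 are 71.8% identical over 238 bases, without gaps. A match is only a run of letters, and binding was not measured. Hnf4a, the gene for this factor, had 292 to 300.2 FPKM in AOS0 and 292 to 317 FPKM in B+A0 (log2 fold change 0.09, SE 0.07, edgeR, adjusted p = 0.434).

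Cyp3a25 and Cyp3a59 lack that element and are shown because both fell and share nearly the whole stretch. Capitals mark AGGTCA, the half-site of many nuclear receptors, and TGACCT, the same letters on the other strand.
Cyp3a25, chr5:146009747-146009806, minus strand: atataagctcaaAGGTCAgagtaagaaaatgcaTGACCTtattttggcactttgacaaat
Cyp3a59, chr5:146079069-146079128, plus strand: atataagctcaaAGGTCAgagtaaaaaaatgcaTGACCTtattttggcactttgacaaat
The 250 bases before the 2 start sites are 95.6% identical. AGGTCA on either strand occurred in 13 members and in 16.3% of all windows. Half-sites AGGTCA or AGTTCA paired as direct repeats with 1, 3 or 4 bases between them, or as everted repeats with 6, occurred in no member and in 0.0822%, 0.0122%, 0.0274% and 0.00913% of all windows.

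**Figure D2:**
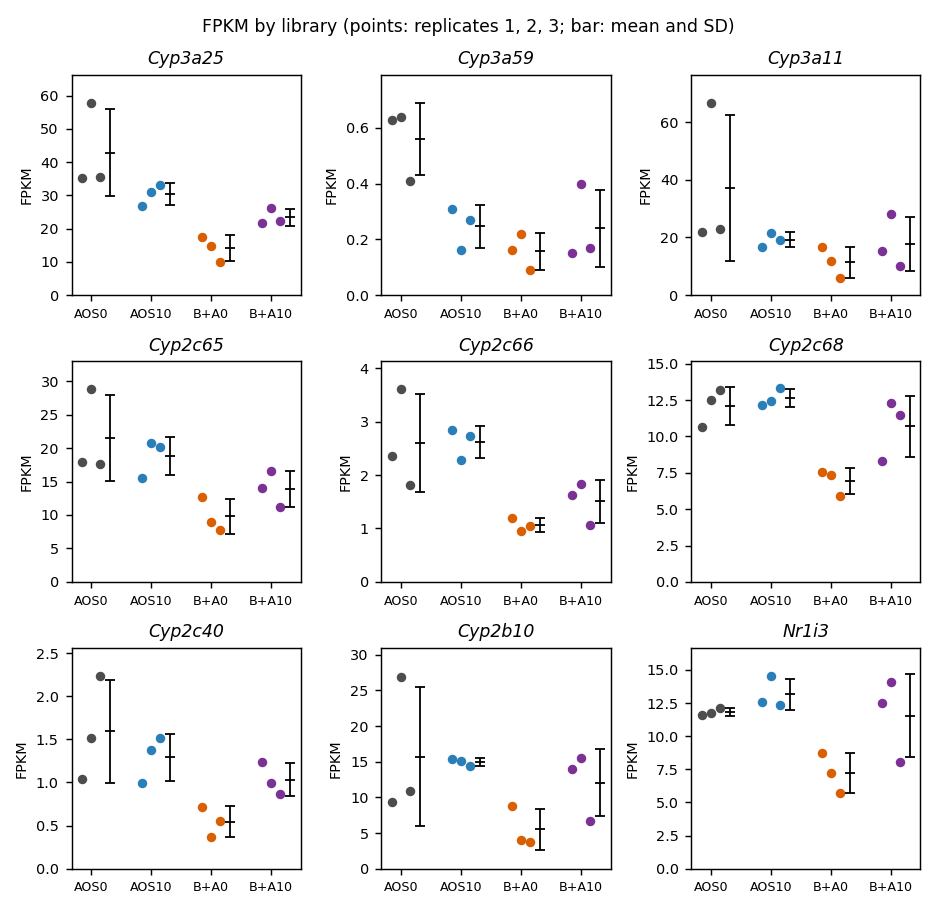
FPKM of 9 genes, with 1 point per library in order of replicate and a bar for the mean and SD of each group. In the 6 called genes, Cyp3a11, Cyp2b10 and Nr1i3 the B+A0 libraries lie below all AOS0 libraries, and in Cyp3a11 and Cyp2b10 AOS0 replicate 2 stands well above the other 2.

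Of the receptors, Nr1i3 and Nr1i2 gave different values. Nr1i3, the constitutive androstane receptor, had 11.6, 11.8 and 12.2 FPKM in AOS0 and 8.70, 7.25 and 5.69 FPKM in B+A0. The AOS0 libraries were tight and the groups did not overlap, yet the log2 fold change of -0.67 (SE 0.19) missed the threshold in edgeR (adjusted p = 0.0661) and passed it in DESeq2 (adjusted p = 0.0194). Cyp2b10, the standard target gene of that receptor, had 9.37, 26.9 and 10.9 FPKM in AOS0 and 8.80, 3.98 and 3.78 FPKM in B+A0, with a log2 fold change of -1.47 (SE 0.44, edgeR, adjusted p = 0.0770). B+A0 replicate 1 lay only just below the lowest AOS0 library for Cyp2b10.

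Nr1i2, the pregnane X receptor, had 43.5, 44.4 and 49.0 FPKM in AOS0 and 47.6, 41.5 and 37.6 FPKM in B+A0. Its groups overlapped, with a log2 fold change of -0.08 (SE 0.11, edgeR, adjusted p = 0.731). Ahr had 2.78, 3.22 and 2.64 FPKM in AOS0 and 2.75, 3.26 and 3.20 FPKM in B+A0 (log2 fold change 0.13, SE 0.12, edgeR, adjusted p = 0.565). Por, the electron donor, had 48.3, 56.6 and 51.0 FPKM in AOS0 and 66.7, 50.2 and 50.6 FPKM in B+A0 (log2 fold change 0.15, SE 0.18, edgeR, adjusted p = 0.679). Both genes had overlapping groups, and the sign for Por turned without B+A0 replicate 1 (-0.01).

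Outside families 1 to 3 no gene was called after busulfan. In family 4, 5 of 8 tested members were below 0 with a median of -0.15. Cyp4f14 had 247, 249 and 262 FPKM in AOS0 and 293, 178 and 175 FPKM in B+A0 (log2 fold change -0.18, SE 0.19, edgeR, adjusted p = 0.641), so its B+A0 libraries lay on both sides of the AOS0 libraries. Cyp4v3 had 92.6, 95 and 79.9 FPKM in AOS0 and 72.7, 39.4 and 34.1 FPKM in B+A0 (log2 fold change -0.82, SE 0.28, edgeR, adjusted p = 0.106). It was the only tested family 4 gene whose groups did not overlap. Cyp27a1, the mitochondrial sterol hydroxylase of the acidic bile acid pathway, had 12.7, 13.1 and 11.4 FPKM in AOS0 and 7.01, 7.07 and 6.78 FPKM in B+A0. Its groups were far apart next to their spread, and its log2 fold change of -0.80 (SE 0.22) gave an adjusted p of 0.0622 in edgeR, 0.0109 in DESeq2 and 0.0217 in a fit of these 2 groups alone.

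The remaining members with high levels showed smaller differences. Cyp2d26 had 72.1, 99.8 and 76.0 FPKM in AOS0 and 70.2, 43.0 and 45.6 FPKM in B+A0 (log2 fold change -0.60, SE 0.26, edgeR, adjusted p = 0.193). Cyp2s1 had 57.6, 60.4 and 59.0 FPKM in AOS0 and 48.7, 49.7 and 41.3 FPKM in B+A0 (log2 fold change -0.30, SE 0.14, edgeR, adjusted p = 0.240). In these 2 genes the groups were apart, whereas they overlapped in Cyp4f13 (-0.35, SE 0.22, adjusted p = 0.379), Cyp4f16 (0.12, SE 0.34, adjusted p = 0.868; -0.33 without B+A0 replicate 1) and Cyp4f40 (-0.11, SE 0.11, adjusted p = 0.575), all by edgeR.

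**Figure D3:**
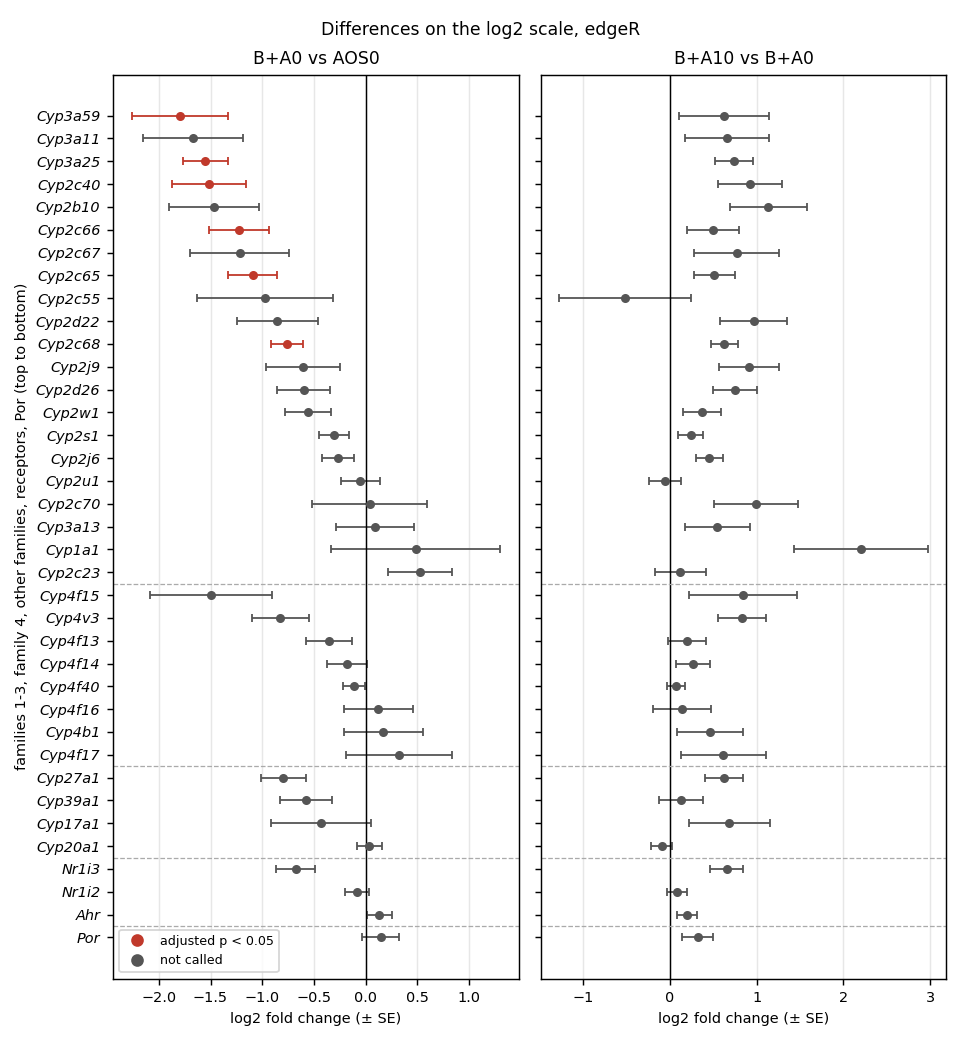
Log2 fold change with its SE (edgeR) for the 37 tested genes in B+A0 against AOS0 and in B+A10 against B+A0, grouped by class, with red for an adjusted p under 0.05. On the left 27 genes lie below 0 and 6 are red; on the right 34 lie above 0 and none is red. Both panels contain the B+A0 libraries.

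Single libraries weighed on these results. B+A0 replicate 1 differed from the other 2 B+A0 libraries in the summed enterocyte markers, which stood at 114% of the AOS0 mean there and at 59.2% and 61.7% in replicates 2 and 3. The sum is carried by a few abundant genes, such as the apolipoprotein gene Apoa1, with 3856, 1604 and 1938 FPKM in B+A0. Single markers varied. Cdh17, a cadherin of the gut lining, had 456, 435 and 386 FPKM in B+A0 and 443 to 464 FPKM in AOS0. Mep1a had 52.9, 28.5 and 19.1 FPKM in B+A0 and 55.5 to 79.8 FPKM in AOS0. The log2 fold change was -0.05 for Cdh17 (SE 0.09, edgeR, adjusted p = 0.814). For Mep1a it was -0.90 (SE 0.29, edgeR, adjusted p = 0.0965), the lowest of the 21 markers. The Cyp4f sum stood at 117%, 75.6% and 72.4% of the AOS0 mean, and Por at 128%, 96.5% and 97.4%. Cyp3a25 stood at 40.9%, 34.8% and 23.4%, highest in replicate 1 and below every AOS0 library in all 3. The Cyp2c sum stood at 63.1%, 49.6% and 41.6%, and Nr1i3 at 73.5%, 61.3% and 48.1%. None of the 21 enterocyte markers was called between B+A0 and AOS0, but 20 were below 0 (median log2 fold change -0.26), and their part in these values was not tested. Without B+A0 replicate 1, 10 members were called, all of them lower, while the share of all genes called went from 3.64% to 8.79%: Cyp3a25, Cyp3a11, Cyp2c40, Cyp2c65, Cyp2c66, Cyp2c68, Cyp2b10, Cyp2d22, Cyp4v3 and Nr1i3.

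**Figure D4:**
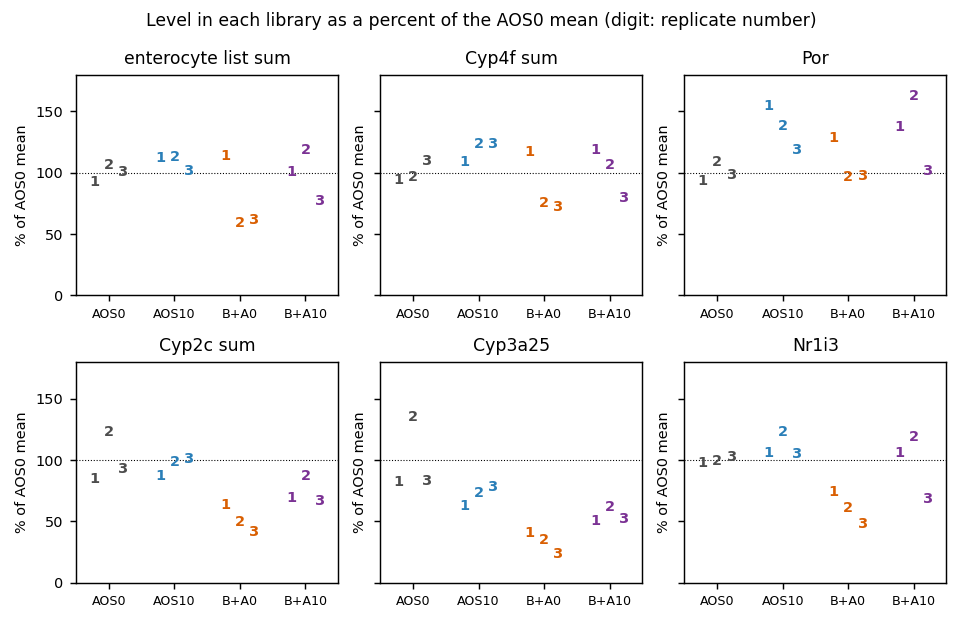
Levels in each library as a percent of the AOS0 mean, with the digit giving the replicate. In B+A0 replicate 1 the enterocyte marker sum (114%), the Cyp4f sum (117%) and Por (128%) lie above the AOS0 mean, and the Cyp2c sum (63.1%), Cyp3a25 (40.9%) and Nr1i3 (73.5%) lie below all AOS0 libraries.

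On the control side, AOS0 replicate 2 stood high in several members. Of 30 members with a mean of at least 1 FPKM, 7 were more than 1.5-fold above the mean of the other 2 AOS0 libraries there, against 0.842% of 10683 such genes in all. Without this library the log2 fold change of Cyp3a25 was -1.26 (edgeR, adjusted p = 0.0193). Leaving out any 1 of the AOS0 libraries, B+A0 replicate 2 or B+A0 replicate 3 left Cyp3a25 as the 1 called member. The share of all genes called dropped as well in these fits, from 3.64% to between 0.168% and 1.70%. The loss of the other calls is therefore not particular to these members. Cyp3a25 passed in all 13 alternatives tried, while the other 5 passed in 4 to 8 of them.

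Genes that work with the P450 enzymes were given as 3 lists. Of 20 electron transfer and haem supply genes, Cpox, which makes a late haem precursor, rose from 20.5 ± 1.98 to 26.4 ± 1.93 FPKM (log2 fold change 0.41, SE 0.08, edgeR, adjusted p = 0.0198), none fell, and the list median was -0.01. Cyb5a, the cytochrome that can pass the second electron to P450 enzymes, was at -0.34 (SE 0.09, edgeR, adjusted p = 0.0524). Of 14 tested receptor partners none fell, and Hsp90ab1, a chaperone that holds unliganded receptors, rose (0.56, SE 0.14, edgeR, adjusted p = 0.0427). The list median was 0.07.

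Conjugation and efflux genes, whose products handle what P450 enzymes make, were also mostly below 0. Of 20 tested, 3 fell, none rose and 19 were below 0 (median -0.38). The drug efflux pump gene Abcb1a had 17.7, 19.4 and 15.3 FPKM in AOS0 and 10.02, 12.9 and 7.57 FPKM in B+A0 (log2 fold change -0.75, SE 0.16, edgeR, adjusted p = 0.0282). The sulfotransferase genes Sult1b1 (-0.64, SE 0.15, edgeR, adjusted p = 0.0406) and Sult1d1 (-0.77, SE 0.18, edgeR, adjusted p = 0.0406) fell too. T cell genes were lower in the same libraries, 6 of 7 called, and the part of T cell or enterocyte content in these differences was not tested.

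Setting B+A10 against B+A0 shows the members with AOS at 10 after busulfan. No member passed, as no gene at all did in edgeR (0.00% called), with 12 of 37 members at an unadjusted p under 0.05 against 9.81% of all genes. DESeq2 called 1 member, Cyp2c68 (adjusted p = 0.0415), beside 0.692% of all genes. The fold changes were mostly positive: 34 of 37 members were above 0 (median 0.55), against 51.8% of all genes (median 0.01). The B+A0 libraries enter this comparison and the one before it, so that a low value in them moves both.

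Cyp2c68 had 8.30, 12.3 and 11.5 FPKM in B+A10, above the 5.93 to 7.53 FPKM of B+A0 (log2 fold change 0.63, SE 0.16, edgeR, adjusted p = 0.280). Cyp3a25 had 21.7, 26.3 and 22.3 FPKM, above the 10.04 to 17.5 FPKM of B+A0 and below the 35.1 to 58.0 FPKM of AOS0 (0.74 against B+A0, SE 0.22, edgeR, adjusted p = 0.309). These 2 genes, Cyp2c40 and Cyp4f15 were the 4 members whose B+A10 libraries all lay above B+A0, beside 4.53% of all genes, and no member lay wholly below, beside 5.01%. Nr1i3 had 12.5, 14.1 and 8.04 FPKM in B+A10, and replicate 3 lay within the B+A0 range (0.66, SE 0.19, edgeR, adjusted p = 0.303). The Cyp2c sum was 28.4, 35.9 and 27.5 FPKM.

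B+A10 replicate 3 was the low library of its group. Of 30 members with a mean of at least 1 FPKM, 13 were more than 1.5-fold below the mean of the other 2 there, against 3.21% of 10683 genes, and its enterocyte marker sum stood at 76.9% of the AOS0 mean against 100.4% and 119%. Without it Nr1i3 (0.85, edgeR, adjusted p = 0.0416) and Cyp27a1 (0.87, edgeR, adjusted p = 0.0416) were called against B+A0, beside 0.408% of all genes. Without B+A0 replicate 1, Cyp2d22 (1.72, adjusted p = 0.0372) and Cyp4v3 (1.26, adjusted p = 0.0389) were called instead, beside 0.360% of all genes. All 21 enterocyte markers were above 0 in this comparison (median 0.29), as were 18 of 20 conjugation and efflux genes (median 0.42), none of them called, and the part of enterocyte content was not tested.

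Members in B+A10 were also set against AOS0. No member was called between B+A10 and AOS0, where 0.957% of all genes were, with 7 of 37 members at an unadjusted p under 0.05 against 15.7% of all genes; DESeq2 called Cyp3a25 (adjusted p = 0.0114), beside 3.99% of all genes. Of the members 20 were below 0 (median -0.04), against 6159 of 12329 genes. Cyp3a25 was at -0.81 (SE 0.21, edgeR, adjusted p = 0.0927) and Cyp3a59 at -1.18 (SE 0.43, edgeR, adjusted p = 0.198), with B+A10 below AOS0 in every library of both. With Cyp2c65 these were the 3 members lying wholly below, beside 11.3% of all genes, and none lay wholly above, beside 6.68%. Nr1i3 was at -0.02 (SE 0.19, adjusted p = 0.975) and Nr1i2 at 0.00 (SE 0.11, adjusted p = 0.999) in edgeR.

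Cyp1a1, the aryl hydrocarbon receptor's best known target and an enzyme that oxidizes polycyclic aromatic compounds, had the widest range of any tested member as a ratio of its highest to its lowest library. It had 1.14, 4.94 and 2.63 FPKM in AOS0, 0.98, 0.23 and 1.24 FPKM in AOS10, 3.86, 3.83 and 4.26 FPKM in B+A0 and 42.8, 9.29 and 2.47 FPKM in B+A10. The high B+A10 mean thus came from replicate 1 with 1795 counts, beside 384 and 99 counts in the other 2, while the 3 AOS10 libraries were the lowest but for 1 AOS0 library. Between B+A10 and AOS10 the groups did not overlap and the log2 fold change was 4.49 (SE 0.92), which missed the threshold in edgeR (adjusted p = 0.0902), passed in DESeq2 (adjusted p = 0.000894) and passed in edgeR without a filter on low counts (adjusted p = 0.0403). Over the alternatives the adjusted p ran from 0.000894 to 0.371. Against AOS0 the value was 2.69 (SE 0.80, edgeR, adjusted p = 0.129) and against B+A0 2.20 (SE 0.77, edgeR, adjusted p = 0.394).

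Other genes that answer to the same receptor gave mixed values in B+A10 replicate 1. Cyp1a2, next to Cyp1a1 on chromosome 9, also had its highest value there, 0.30 FPKM from 9 of its 18 counts over all libraries. Of its 50-base stretches, 4.79% also occur in Cyp1a1 transcripts. Whether Cyp1a1 reads entered these few counts was not tested. Tiparp, an aryl hydrocarbon receptor target that acts back on the receptor, had 5.72, 5.01 and 5.77 FPKM in B+A10. Nqo1 had 39.9, 46.8 and 47.3 FPKM and Ugt1a6a had 2.47, 2.70 and 2.38 FPKM. In Tiparp, Nqo1 and Ugt1a6a the B+A10 libraries differed little, and replicate 1 was not the highest. Against B+A0, all B+A10 libraries lay above for Tiparp (3.64 to 4.75 FPKM in B+A0) and Ugt1a6a (1.54 to 1.92 FPKM), but Nqo1 overlapped. Of all genes, 4.53% lay wholly above in this comparison. The log2 fold change was 0.39 for Tiparp (SE 0.13, edgeR, adjusted p = 0.377) and 0.49 for Ugt1a6a (SE 0.16, edgeR, adjusted p = 0.360). The B+A10 libraries of Tiparp lay within its AOS0 range. Against AOS0, Tiparp was at 0.04 in B+A10 (SE 0.13, edgeR, adjusted p = 0.921) and at -0.35 in B+A0 (SE 0.13, edgeR, adjusted p = 0.129). Ugt1a6a was at 0.33 in B+A10 (SE 0.16, edgeR, adjusted p = 0.330) and at -0.16 in B+A0 (SE 0.16, edgeR, adjusted p = 0.612).

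Ahr itself had 3.51, 2.99 and 4.08 FPKM in B+A10 and 2.58, 2.52 and 2.53 FPKM in AOS10. The groups were apart, and the log2 fold change was 0.48 (SE 0.12, edgeR, adjusted p = 0.168). In this comparison of the 2 groups with AOS at 10, no member was called, where 0.162% of all genes were, and 5 of 37 had an unadjusted p under 0.05 against 10.2% of all genes. Of the members 26 were below 0 (median -0.09), against 49.1% of all genes. DESeq2 called 2, Cyp1a1 and Cyp4f17, beside 1.21% of all genes. Cyp4f17 had 1.73, 5.40 and 3.41 FPKM in B+A10 and 1.72, 0.79 and 0.52 FPKM in AOS10 (1.78, SE 0.53, edgeR, adjusted p = 0.258). Cyp1a1, Cyp4f17 and Ahr were the 3 members lying wholly above, beside 6.62% of all genes. Wholly below lay 4 members beside 8.13%: Cyp2c66 (-0.78, SE 0.28, edgeR, adjusted p = 0.348), Cyp4f13 (-0.48, SE 0.22, adjusted p = 0.484), Cyp3a25 (-0.36, SE 0.21, adjusted p = 0.625) and Cyp2c55 (-1.13, SE 0.72, adjusted p = 0.645). The value for Cyp2c65 was -0.42 (SE 0.23, adjusted p = 0.600).

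**Figure D5:**
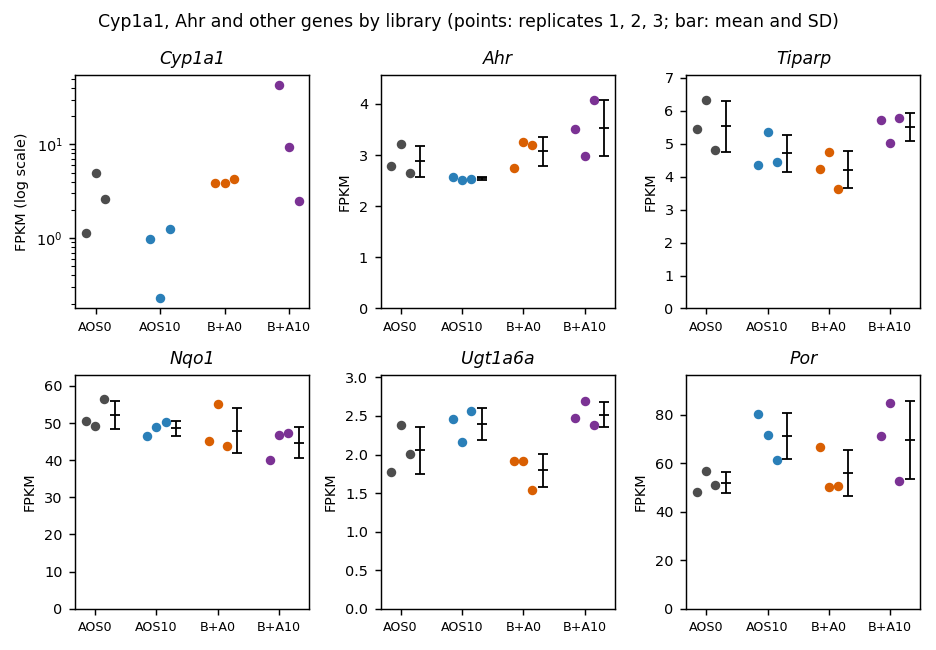
FPKM of Cyp1a1 (log axis), Ahr, Tiparp, Nqo1, Ugt1a6a and Por (linear axes from 0), with 1 point per library in order of replicate and, on the linear axes, a bar for the mean and SD. Cyp1a1 reaches 42.8 FPKM in B+A10 replicate 1, and the B+A10 libraries of Tiparp lie between 5.01 and 5.77 FPKM.

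Without busulfan, AOS at 10 gave no call among the members, as among all genes (0.00%), in edgeR and none among the members in DESeq2, which called 0.511% of all genes. Of the 37 members, 4 had an unadjusted p under 0.05, against 6.23% of all genes. Of the members, 18 were below 0, against 52.2% of all genes, and the median was 0.01. Por had 80.2, 71.7 and 61.5 FPKM in AOS10, all above the 48.3 to 56.6 FPKM of AOS0 (log2 fold change 0.49, SE 0.18, edgeR, adjusted p = 0.676). Cyp4f14 had 304, 333 and 330.2 FPKM, also above AOS0 (0.39, SE 0.19, edgeR, adjusted p = 0.802; 0.0463 in a fit of these 2 groups alone). Cyp2c70, which in mouse liver makes the muricholic acids, had 0.43, 0.66 and 0.50 FPKM against 0.14 to 0.30 FPKM, at 3 to 16 counts (1.38, SE 0.48, edgeR, adjusted p = 0.624).

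On the other side, the 3 AOS10 libraries of Cyp3a25 had 26.9, 31.1 and 33.3 FPKM, all below AOS0 (log2 fold change -0.45, SE 0.21, edgeR, adjusted p = 0.799). Cyp3a59 was at -1.19 (SE 0.44, edgeR, adjusted p = 0.672) and Cyp20a1, a P450 gene of unknown substrate, at -0.29 (SE 0.12, edgeR, adjusted p = 0.798), with 5.51, 5.93 and 6.71 FPKM against 6.80 to 8.20 FPKM. All 4 tested Cyp3a genes were below 0. In all, 8 members lay wholly above AOS0 beside 7.71% of genes, and 7 lay wholly below beside 12.7%.

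Whether the busulfan difference itself depended on AOS was tested as a difference of differences over the 4 groups. No member was called, as no gene was (0.00%), in edgeR and no member in DESeq2, which called 0.138% of all genes. In edgeR 8 of 37 members had an unadjusted p under 0.05, all in families 1 to 3, against 6.85% of all genes. Of the 37 members, 28 were above 0 (median 0.49), against 52.0% of all genes (median 0.01). The values were 1.19 for Cyp3a25 (SE 0.30, edgeR, adjusted p = 0.499), 4.0 for Cyp1a1 (SE 1.23, adjusted p = 0.508) and 1.81 for Cyp3a59 (SE 0.68, adjusted p = 0.638). On the negative side, Cyp2c23 was at -0.46 (SE 0.43, adjusted p = 0.840), Por at -0.16 (SE 0.25, adjusted p = 0.905) and Cyp2c70 at -0.39 (SE 0.70, adjusted p = 0.917) in edgeR. The call of Cyp3a25 between B+A0 and AOS0 and its absence between B+A10 and AOS10 therefore do not by themselves show that the effect differed with AOS.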

How the data were processed

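Total RNA of 12 libraries was deposited as 1 table of 16942 genes. Its count columns hold expected counts that the authors left without normalization (called read counts in the header); 8.90% to 9.33% of values per library were not whole (tolerance 1e-06), and all were rounded. The deposited values of the second kind carry no unit and were read as FPKM, since the ratio of count to value tracked the library totals within 0.256% over 5071 genes. Reads were placed on mm10 (per the submitters' processing notes). Aligner, counter and strand setting: not given in the sources used here, which leaves overlapping genes unresolved. Groups and replicate numbers came from the labels.

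Genes kept by filterByExpr (12329) were scaled by TMM (0.969 to 1.05) and tested with edgeR 4.0.16 (R 4.3.3) in 1 quasi-likelihood fit of 12 libraries, with 6 contrasts and Benjamini-Hochberg adjustment over all genes at 0.05. Each SE is the fold change without shrinkage, on the log2 scale, divided by the square root of F. The script was tested on simulated counts. Alternatives were DESeq2 1.42.0, its size factors in edgeR, no filter, at least 10 counts in 3 libraries, the compared groups alone, a replicate block, each library left out and limma 3.58.1 on log2(FPKM + 1), which understates changes of low genes. No 2 replicates were alike within counting noise (chi-square over its degrees of freedom 8.28 to 35.4). Members and lists were chosen with earlier results of these data known. Named with values are all called members, the 10 highest by mean FPKM, Cyp3a25, Por, the receptors, the 3 smallest p per direction and contrast, and called genes of the lists; others (Cyp3a11, Cyp2b10, Cyp27a1, Cyp2d22, Cyp4f15, Cyp2c67, Cyp2c55, untested members and uncalled genes of the lists) were chosen after their values were seen. Some genes that this rule names are left out of the text and not reported. Coordinates and promoters are from RefSeq GRCm38.p6, matched by gene ID for all 69 members. Figures were drawn with matplotlib 3.10.9.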

Additional observations from a re-analysis of the deposited data

How the results depend on the processing

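Between B+A0 and AOS0, 6 members were called by edgeR and 9 by DESeq2, which called 1025 of all genes against 449. The compared groups alone gave 3 (35 members tested), beside 1.99% of all genes. Leaving out 1 library gave 1 to 10 (all genes called ran from 21 to 1099). Each AOS0 library and B+A0 replicates 2 and 3 gave 1, and B+A0 replicate 1 gave 10. Between B+A10 and B+A0, where edgeR called 0, DESeq2 called 1 and leaving out 1 library gave 0 to 2. Between AOS10 and AOS0, the compared groups alone gave 1 (Cyp4f14), beside 0.512% of all genes. Between B+A10 and AOS10, DESeq2 called 2, no filter gave 1 (beside 0.237% of all genes) and leaving out 1 library gave 0 to 1. The 1 call came without B+A10 replicate 3, beside 0.240% of all genes. Between B+A10 and AOS0, DESeq2 called 1 and leaving out 1 library gave 0 to 2. The 2 calls, Cyp1a1 and Por without B+A10 replicate 3, stand beside 6.10% of all genes called in that fit of 39 members. The interaction gave 0 members in every alternative run.

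With the replicate block, 3 members were called between B+A0 and AOS0 (Cyp2c65, Cyp2c68 and Cyp3a25), beside 1.57% of all genes. In the other 5 contrasts 0 were called. No strong pairing by number was seen: the deviations of same-numbered libraries correlated at -0.162 to 0.173 over 18 pairs, with 1 pair over 0.1. With 3 libraries per group, these values cannot exclude a weaker pairing.

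Of the values of named members under the alternatives, 608 kept direction and side of the threshold, 34 were no longer past it, 13 newly passed and 11 changed sign. Leaving out single libraries gave, between B+A0 and AOS0, -0.43 to 0.47 for Cyp3a13 (-0.11 by limma), -0.33 to 0.41 for Cyp4f16 and -0.013 to 0.24 for Por. Between B+A10 and B+A0 the ranges were -0.93 to 0.16 for Cyp2c55 and -0.20 to 0.024 for Cyp2u1, and in the interaction -0.34 to 0.016 for Por. In 6 of the 11 the library left out was B+A0 replicate 1. The cause of these changes was not tested. Depth limits Cyp3a59, Cyp2c70 and the 32 members not tested.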
